A study of Homo sapiens with 12 samples.

Results

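The genes described here are 10 cytosolic and mitochondrial heat shock proteins, the chaperones HSPA1A, HSPA8, HSPH1, DNAJA1, DNAJB1, HSP90AA1, HSP90AB1, HSPD1, HSPE1 and HSPB1, out of 19775 genes that 12 Affymetrix HG-U133 Plus 2.0 arrays named. Each gene was read from the probe set that is annotated to that gene alone and has the highest mean over the 12 arrays. This rule gave a value for 8 of the 10 genes. HSPA1A and HSPA8 have none, because their probe sets are annotated to several genes at once, HSPA1A together with its near identical copy HSPA1B. Values are log2 GCRMA values, a background-corrected summary of a probe set's brightness in which a difference of 1 is a doubling.

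RNA came from Hs578T and BT-20, established human breast cancer cell lines, after 24 h with 200 nM of an oligonucleotide and 3 µg of the liposomal reagent DOTAP per µg of DNA. The oligonucleotides were ODN2006, a CpG oligodeoxynucleotide given as 1 strand, its control ODN2006 CTR, in which the CpG are turned to GpC, and CDH13 M and CDH13 U, a double-stranded 30-base oligonucleotide from exon 1 of CDH13, the gene of T-cadherin, whose 4 CpG cytosines on each strand were methylated (CDH13 M, here M) or not (CDH13 U, here U). M and U had 2 arrays per line, set 1 and set 2, which the labels call biological replicates, whereas each ODN had 1 array per line and no set number. The array names carry one run code for set 1 and another for set 2 and all ODN arrays, called array batch 1 and array batch 2 below. The ODNs and M or U thus differ in sequence, length and strandedness at once. At the same 200 nM the longer, double-stranded M and U also bring more DNA by mass. DOTAP was given per µg of DNA, so its amount differed too. All 12 cultures were transfected, and neither untreated cells nor cells given DOTAP alone were analysed here.

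Heat shock proteins bind unfolded or partly folded proteins and help them to fold, to be held soluble or to be passed on for degradation. HSP70 proteins work in cycles of ATP use that J-domain proteins start and nucleotide exchange factors such as HSPH1 end, clients such as kinases and steroid receptors move on to HSP90, and inside mitochondria HSPD1 and HSPE1 form the chamber in which imported proteins fold. Under stress that unfolds proteins the transcription factor HSF1 binds heat shock elements, repeats of GAA and its complement TTC in alternating direction, and raises the transcription of many of these genes.

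The ODNs that were set against each other differ only in the order of C and G, which the capitals mark as CpG in ODN2006 and as GpC in its control. CDH13 U is shown with both strands because the kinds of oligonucleotide are also set against each other, and CDH13 M has the same letters with methylated cytosines at 2, 7, 11 and 16, and at 14, 19, 23 and 28 of the complementary strand.
ODN2006: tCGtCGttttgtCGttttgtCGtt
ODN2006 CTR: tGCtGCttttgtGCttttgtGCtt
CDH13 U: tCGgatCGccCGgcaCGggcagggtgaggg
CDH13 U complementary strand: ccctcaccctgccCGtgcCGggCGatcCGa

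Promoter stretches of 5 measured genes are shown, 4 because they hold the 13 letters given below and DNAJB1 by choice. They come from RefSeq windows of build GRCh38.p14 that run from 250 bases before to 50 bases after a gene's start, and all 10 genes matched by symbol. The letters GAANNTTCNNGAA, on either strand, lie in 0.49% of 35116 such windows and in 5 of 16 windows of the 10 genes, those of HSPA8, DNAJA1, HSP90AA1, HSP90AB1 and HSPD1. Capitals mark these 13 letters in the first 4 stretches. DNAJB1 holds none of them, and capitals in its stretch mark the shorter GAANNTTC, which is its own reverse complement and is found in 6.77% of all windows. HSPB1 also holds the shorter letters without the longer ones, and its stretch is not shown. The stretches are chr9:33025236-33025292 on the plus strand for DNAJA1, chr14:102087080-102087172 on the minus strand for HSP90AA1, chr6:44247738-44247883 on the plus strand for HSP90AB1, chr2:197500028-197500090 on the minus strand for HSPD1 and chr19:14518398-14518514 on the minus strand for DNAJB1.
DNAJA1: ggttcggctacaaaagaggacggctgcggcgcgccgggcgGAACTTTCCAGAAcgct
HSP90AA1: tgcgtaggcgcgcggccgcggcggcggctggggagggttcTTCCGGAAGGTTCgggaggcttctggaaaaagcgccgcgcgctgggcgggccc
HSP90AB1: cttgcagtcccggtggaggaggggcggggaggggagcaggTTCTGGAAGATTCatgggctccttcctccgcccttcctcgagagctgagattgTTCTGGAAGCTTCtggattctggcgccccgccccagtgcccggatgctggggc
HSPD1: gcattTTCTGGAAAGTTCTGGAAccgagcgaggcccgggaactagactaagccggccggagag
DNAJB1: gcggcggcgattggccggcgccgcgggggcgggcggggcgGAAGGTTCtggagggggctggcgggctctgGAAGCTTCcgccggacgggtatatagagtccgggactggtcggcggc

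Counted with the start as position 1 and the base before it as -1, the match in DNAJA1 spans 4 to 16, in the first transcribed bases. The matches span -88 to -76 in HSP90AA1, -165 to -153 and -112 to -100 in HSP90AB1, and -77 to -70 and -47 to -40 in DNAJB1. In HSPD1 a match at -245 to -233 overlaps another at -240 to -228, counted from the annotated start farther from HSPE1. Both lie downstream of the other annotated start of HSPD1. HSPD1 and HSPE1 are divergent neighbours, and the start of HSPE1 lies 539 or 105 bases from the annotated starts of HSPD1, with the farther of these matches 299 bases from it. A match is a description of the letters and not a bound site.

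Within a line, arrays correlated across probe sets at 0.985 to 0.998, between lines at 0.887 to 0.906, and no pair was identical. Array medians lay between 3.01 and 3.08. Defining markers followed the line labels: 12 of 12 mesenchymal genes were at 5 or above in every Hs578T array and 12 of 12 epithelial genes in every BT-20 array. All 8 measured heat shock proteins were above the floor of 5 in all 12 arrays. The number of arrays limits the precision, and P-values measure the spread between these arrays only.

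Between the lines, 4 of the 8 genes were lower in Hs578T (HSPH1, HSPE1, DNAJB1 and HSPD1), 1 was higher (HSPB1), and the other 3 did not pass the test. The largest difference was in HSPH1, at 2.69-fold lower, followed by HSPE1 at 2.02-fold lower. The comparison took the M and U arrays, 4 in Hs578T against 4 in BT-20. In it 74.6% of 10410 genes passed, 40.2% lower and 34.4% higher, so calls were common throughout. Each 4 are the M and U arrays of 2 sets. Deviations from group means of a set's M and U arrays correlated at 0.599 in Hs578T and 0.595 in BT-20. The test took the arrays as independent, so its P-values do not measure how far sets vary. As these are bulk samples, fewer cells that carry a transcript and less of it per cell cannot be told apart.

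Between kinds of oligonucleotide, 4 of the 8 genes were lower with the ODNs than with M and U in Hs578T (DNAJB1, DNAJA1, HSPH1 and HSPE1, by 1.43-fold to 1.98-fold), where 9.03% of 10375 genes passed, 5.16% lower and 3.87% higher. None of the 8 passed in BT-20, where 0% of the genes did and 534 had an unadjusted P under 0.05. Both ODN arrays of a line were set here against its M and U arrays of array batch 2, 2 against 2, which treats different oligonucleotides as replicates.

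HSPH1, the cytosolic HSP110 that drives nucleotide exchange on HSP70, had 10.55 with ODN2006 and 10.30 with ODN2006 CTR in Hs578T, against 11.44 and 11.12 with M (set 1, then set 2) and 11.55 and 10.94 with U. BT-20 had 12.24 and 12.39 with the ODNs, against 12.99 and 12.57 with M and 12.80 and 12.40 with U. Every Hs578T array was below every BT-20 array, and in each line the ODN arrays were below all M and U arrays. Hs578T was lower than BT-20 by a log2 difference of -1.43 (SE 0.19, adjusted P=4.84e-04). The ODN arrays were lower than M and U of array batch 2 by -0.60 in Hs578T (SE 0.14, adjusted P=0.0457) and differed by -0.17 in BT-20 (SE 0.14, adjusted P above 0.999). The Hs578T call is the weakest of the 4: with all probe sets of HSPH1 averaged the difference was -0.29 (adjusted P=0.354).

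The J-domain proteins deliver clients to HSP70 and start its ATP use. DNAJA1, a cytosolic HSP40, had 11.98 with ODN2006 and 11.997 with ODN2006 CTR in Hs578T, against 12.77 and 12.99 with M and 12.89 and 12.80 with U. In BT-20 it had 12.50 and 12.47 with the ODNs, against 12.98 and 12.56 with M and 12.79 and 12.67 with U. The Hs578T ODN arrays were thus the lowest of all 12, while the M and U arrays of the lines overlapped. With the ODNs DNAJA1 was lower in Hs578T by -0.91 (SE 0.11, adjusted P=0.0124), and in BT-20 the difference was -0.13 (SE 0.11). The lines differed by 0.11 (SE 0.13, adjusted P=0.438), a direction that turned to -0.04 when arrays were centred on housekeeping genes.

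DNAJB1, the stress-inducible HSP40, had 9.19 with ODN2006 and 9.48 with ODN2006 CTR in Hs578T, against 10.39 and 10.39 with M and 10.43 and 10.24 with U. In BT-20 the values were 10.78 and 10.72 with the ODNs, against 10.99 and 10.73 with M and 11.03 and 10.87 with U. The Hs578T ODN arrays stood clear below everything else, whereas in BT-20 the ODN2006 array lay between the M and U arrays of array batch 2. The ODN difference was -0.98 in Hs578T (SE 0.13, adjusted P=0.0151), the largest of the 8, and -0.05 in BT-20 (SE 0.13). Among M and U arrays Hs578T was lower than BT-20 by -0.54 (SE 0.11, adjusted P=0.00287).

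The cytosolic HSP90 pair, which finishes the folding of kinases and receptors, passed none of the main tests. HSP90AA1, the inducible form, had 14.70 with ODN2006 and 14.59 with ODN2006 CTR in Hs578T, against 14.80 and 14.77 with M and 14.86 and 14.73 with U. BT-20 gave 14.71 and 14.68 with the ODNs, against 14.73 and 14.62 with M and 14.74 and 14.67 with U. All 12 values lay between 14.59 and 14.86, and the lines overlapped. Neither the lines (0.10, SE 0.087, adjusted P=0.332, turning to -0.05 under housekeeping centring) nor the kinds of oligonucleotide differed past the threshold, at -0.10 in Hs578T (adjusted P=0.537) and 0.05 in BT-20.

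HSP90AB1, the constitutive form, had 13.74 with ODN2006 and 13.67 with ODN2006 CTR in Hs578T, against 14.00 and 14.11 with M and 13.86 and 13.97 with U. In BT-20 it had 13.68 and 13.63 with the ODNs, against 13.78 and 13.77 with M and 13.85 and 13.78 with U. The ODN arrays were below all M and U arrays in both lines, but the difference did not pass: -0.33 in Hs578T (SE 0.10, adjusted P=0.0912) and -0.12 in BT-20 (SE 0.10). With limma's trend and robust settings the Hs578T difference passed (adjusted P=0.0156). Hs578T exceeded BT-20 by 0.19 among M and U arrays (SE 0.086, adjusted P=0.0858), with no overlap of the lines in those arrays, and this difference passed without the filter on dim genes, with the mean of all probe sets and with the trend and robust settings.

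HSPD1, the mitochondrial chaperonin HSP60, had 13.83 with ODN2006 and 13.80 with ODN2006 CTR in Hs578T, against 14.07 and 14.17 with M and 14.16 and 14.20 with U. In BT-20 HSPD1 had 14.46 and 14.45 with the ODNs, against 14.53 and 14.52 with M and 14.49 and 14.54 with U. Each BT-20 array was above each Hs578T array, and within each line the ODN arrays were the lowest. Hs578T was lower than BT-20 by -0.37 (SE 0.083, adjusted P=0.00569). With the ODNs the difference was -0.37 in Hs578T (SE 0.094), short of the threshold at an adjusted P=0.0571, and -0.07 in BT-20 (SE 0.094). In Hs578T HSPD1 was called with array batch within line as a replicate block (adjusted P=0.0266). That fit took the M and U arrays of both sets, so it differs from the main test in its arrays too.

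HSPE1, the HSP10 lid of that chaperonin, had 11.76 with ODN2006 and 11.86 with ODN2006 CTR in Hs578T, against 12.15 and 12.37 with M and 12.20 and 12.27 with U. BT-20 had 13.003 and 13.04 with the ODNs, against 13.33 and 13.16 with M and 13.42 and 13.14 with U. As for its partner HSPD1, the lines did not overlap and the ODN arrays were lowest in each. HSPE1 was lower in Hs578T than in BT-20 by -1.01 (SE 0.11, adjusted P=1.78e-04). With the ODNs it was lower by -0.52 in Hs578T (SE 0.10, adjusted P=0.0334), and the difference was -0.13 in BT-20 (SE 0.10).

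HSPB1, the small heat shock protein HSP27, which holds unfolded proteins without using ATP, had 13.85 with ODN2006 and 13.87 with ODN2006 CTR in Hs578T, against 13.99 and 14.09 with M and 14.03 and 14.03 with U. In BT-20 it had 13.73 and 13.85 with the ODNs, against 13.64 and 13.63 with M and 13.62 and 13.75 with U. It was the only one of the 8 called higher in Hs578T, by 0.38 among M and U arrays (SE 0.086, adjusted P=0.00630), while the BT-20 array with ODN2006 CTR reached the Hs578T array with ODN2006. With the ODNs it differed by -0.20 in Hs578T (SE 0.11, adjusted P=0.249) and by 0.10 in BT-20 (SE 0.11).

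Read across the genes, the groups did not overlap for 4 of 8 genes lower in Hs578T (HSPH1, DNAJB1, HSPD1 and HSPE1), against 39.9% of all genes, and for 2 higher (HSP90AB1 and HSPB1), against 33.5%, among M and U arrays. Over all 12 arrays the same 4 lower genes did not overlap (35.9% of all genes) and 0 higher ones did so (29.1%). The median line difference of the 8 genes was -0.14, beside -0.09 for all genes tested. Centring on 13 housekeeping genes moved the median of all genes by a further -0.16 on the log2 scale. Of these 13 genes 2 were themselves called higher and 3 lower in Hs578T, against 34.4% and 40.2% of all genes.

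In Hs578T the ODN arrays lay below both M and U arrays of array batch 2 for 8 of 8 genes, a pattern shown by 32.1% of all genes, and below all M and U arrays of both sets for 8 of 8, against 25.3%, while 0 of 8 lay above those of array batch 2 (21.9% of all genes). The median difference was -0.44 for the 8 genes and -0.06 for all genes tested. In BT-20, 5 of 8 did so in array batch 2 (20.3% of all genes) and 5 against both sets (12.7%), namely HSPH1, DNAJA1, HSP90AB1, HSPD1 and HSPE1, with a median difference of -0.10 beside -0.00250 for all genes. HSP90AA1 was the 1 gene above both M and U arrays of array batch 2 there (21.5%).

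**Figure D1:**
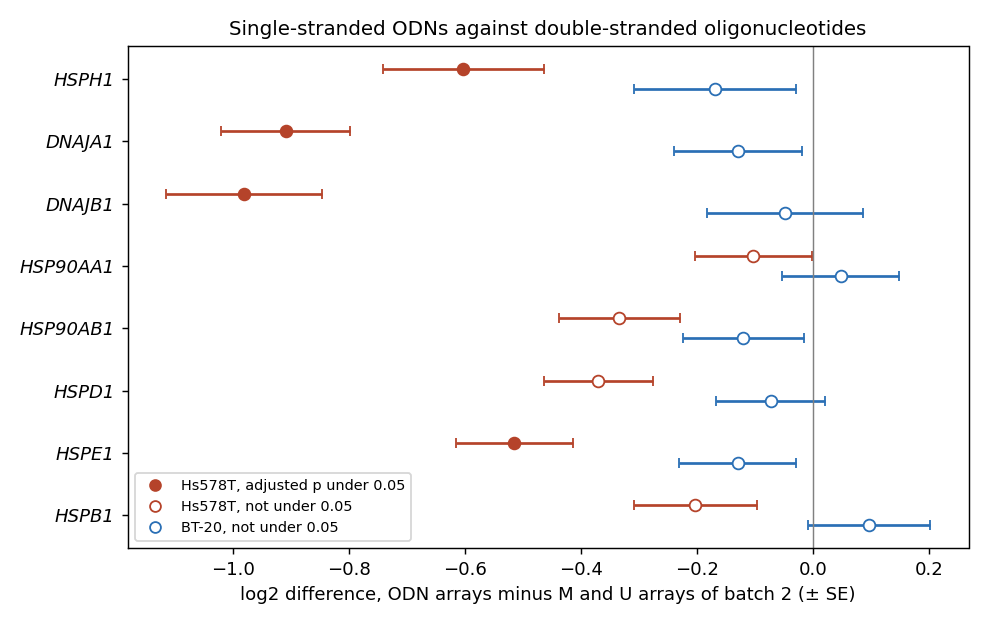
Log2 difference, ODN arrays minus M and U arrays of array batch 2 (x axis, bars are SE) for each heat shock protein gene, Hs578T in red above BT-20 in blue; filled points have an adjusted P under 0.05. All 8 Hs578T points lie below 0, from -0.98 for DNAJB1 to -0.10 for HSP90AA1, and the BT-20 points lie between -0.17 and 0.10.

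The difference between the lines was itself tested. The ODN difference in Hs578T minus that in BT-20 was -0.93 for DNAJB1 (SE 0.19, adjusted P=0.128) and -0.78 for DNAJA1 (SE 0.16, adjusted P=0.125). Neither passed, so the ODN response of these genes is not shown to differ between lines. In this test 0 of the 8 passed, as did 0.27% of all genes, 0.202% higher and 0.0675% lower, and 1659 genes had an unadjusted P under 0.05. Over both lines together DNAJA1 alone passed, at -0.52 (SE 0.078, adjusted P=0.0359), where 1.62% of all genes passed, 0.53% lower and 1.09% higher, and DNAJB1 had the same size at an adjusted P=0.0541. With M and U arrays of both sets and array batch within line as a replicate block, 3 genes passed over both lines, DNAJA1, DNAJB1 and HSPE1.

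The calls in Hs578T rested on few arrays. Without its ODN2006 array 0 of the 4 calls were left, with differences of -0.90 for DNAJA1 (adjusted P=0.0632) and -0.84 for DNAJB1 (adjusted P=0.0644), and without its M array of set 2 DNAJA1 alone was called. Leaving out any 1 BT-20 array of array batch 2, which only serves the estimate of spread, left DNAJA1 and DNAJB1, and without the Hs578T array with ODN2006 CTR HSPH1 alone was lost (adjusted P=0.112). The DNAJA1 call over both lines was lost without the Hs578T array with ODN2006, without that with M of set 2, or without any 1 BT-20 array of array batch 2.

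Markers of other cell types were read in the same arrays. With the ODNs against M and U of array batch 2 in Hs578T, the summed log2 level of 12 epithelial genes was 59.8 to 60.3 against 56.7 to 58.9, and that of 12 mesenchymal genes was 156.4 to 156.5 against 154.2. Of these lists the desmosome gene DSP alone passed, at 0.94 higher with the ODNs (adjusted P=0.0360). DSP had 9.21 and 8.70 with the ODNs, against 7.84 with M and 8.18 with U in set 2. In set 1 it was higher than with the ODNs, at 10.01 with M and 9.88 with U. Over all Hs578T arrays the epithelial sum ran from 56.7 to 62.2. Of the 12 epithelial genes 7, CDH1 and EPCAM among them, were under 5 in every Hs578T array. The part of these markers in the result was not tested. The 13 housekeeping genes had a median difference of -0.02, with 0 called. The ODN cultures carry no set number and, by the stated dose, had less DNA and DOTAP by mass. A separate culture, these amounts and the kind of oligonucleotide thus cannot be told apart.

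Methylation of the double-stranded oligonucleotide went with no called difference in the 8 genes. M minus U ran from -0.06 for HSPD1 to 0.14 for HSP90AB1 in Hs578T (SE 0.12 to 0.27) and from -0.09 for DNAJB1 to 0.18 for HSPH1 in BT-20. Here limma called 0% of 10410 genes in either line, over both or as the difference between lines, with 680 genes in Hs578T, 174 in BT-20, 543 over both and 258 for the difference at an unadjusted P under 0.05. The sets did not repeat each other: in Hs578T M was above U for 1 of 8 genes in set 1 and for 7 of 8 in set 2.

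ODN2006 and its GpC control also gave no called difference. Over both lines the 8 genes ran from -0.11 for DNAJB1 to 0.08 for HSP90AA1 (SE 0.12 to 0.27, adjusted P=0.999), where 0.00948% of 10543 genes were called and 490 had an unadjusted P under 0.05. In single arrays ODN2006 minus its control ran from -0.28 for DNAJB1 to 0.25 for HSPH1 in Hs578T, and from -0.15 for HSPH1 to 0.06 for DNAJB1 in BT-20. With 1 array of each ODN per line, the spread was borrowed from the M and U groups.

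Between sets, HSPH1 moved most. It was lower in set 2 than in set 1 for both M and U, by -0.46 in Hs578T (SE 0.12, adjusted P=0.132) and by -0.42 in BT-20 (SE 0.12, adjusted P=0.147). Of the 8 genes 0 passed in either line. The M and U arrays of a set stood as its replicates here, so P does not measure how far sets vary. Over all genes 2.39% passed in Hs578T, 0.663% higher and 1.73% lower, and 2.37% in BT-20, 0.576% higher and 1.8% lower, with 2140 and 2185 genes at an unadjusted P under 0.05. HSPH1 passed in both lines when limma's trend and robust settings were used. In BT-20, 6 of 8 genes were lower in both set 2 arrays than in both set 1 arrays (34.4% of all genes), and in Hs578T 3 of 8 were (29.3%). In Hs578T 2 of 8, HSPD1 and HSPE1, were higher in both set 2 arrays (17.7%), against 0 of 8 in BT-20 (20.6%).

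The other probe sets of the genes were compared as a check on the choice. The 8 genes have 21 single-gene probe sets, and 17 of them were at 5 or above in all 12 arrays. Each of these 17 had the same direction between lines as the one used for its gene, and each was lower with the ODNs in Hs578T. The spread between probe sets of a gene was large in places: the second one of DNAJA1 differed by -1.29 with the ODNs, and those of HSP90AA1 by -0.06 to -0.36. Another, dim probe set of HSPH1, between 4.27 and 7.19, went the other way with the ODNs (0.48).

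**Figure D2:**
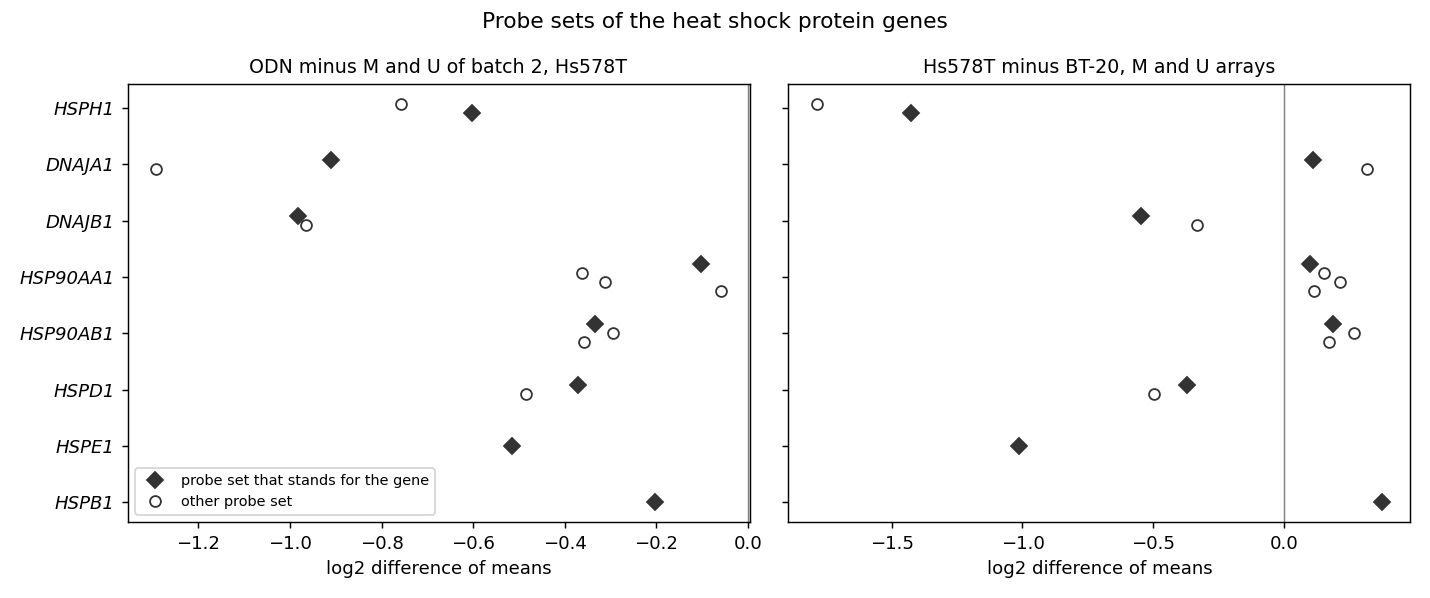
Log2 difference (x axis) of each of the 17 probe sets that were at 5 or above in all 12 arrays, for ODN minus M and U of array batch 2 in Hs578T (left) and for Hs578T minus BT-20 among M and U arrays (right); diamonds stand for the gene in the text. All 17 lie below 0 on the left, and on the right those of 1 gene share a side.

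Other chaperone lists were read in the same ODN comparison in Hs578T, where 5.16% of all genes were lower, 3.87% were higher and 5927 of 10375 had a difference below 0. Of 18 co-chaperones 4 were lower and 0 higher: BAG3, a nucleotide exchange factor that links HSP70 to autophagy (-0.60, SE 0.14, adjusted P=0.0449), STIP1, the adaptor between HSP70 and HSP90 (-0.56, SE 0.11, adjusted P=0.0349), CHORDC1 (-0.54, SE 0.11, adjusted P=0.0378) and SUGT1 (-0.52, SE 0.098, adjusted P=0.0315), both HSP90 co-chaperones. STIP1 had 11.59 and 11.53 with the ODNs, against 12.22 and 12.14 with M and 12.21 and 12.09 with U, so the ODN arrays did not overlap with the others. Of 10 further HSP70 and HSP40 genes 1 was lower, HSPA4, an HSP110 relative of HSPH1 (-0.54, adjusted P=0.0351), a count near the share over all genes.

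The cytosolic chaperonin TRiC and its partner prefoldin had 1 of 12 genes lower, the prefoldin subunit VBP1 (-0.51, SE 0.12, adjusted P=0.0467), with 10 of 12 below 0. Of 12 mitochondrial chaperones and proteases 1 was lower, the disaggregase CLPB (-0.67, SE 0.14, adjusted P=0.0389), and 11 were below 0. A single call in 12 genes is near the 5.16% of all genes called lower. The median differences were -0.30 for the co-chaperones, -0.29 for TRiC and prefoldin and -0.24 for the mitochondrial list, beside -0.06 for all genes. In BT-20 none of the genes on these lists was called.

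Of 12 other genes known as HSF1 targets, 4 were lower with the ODNs in Hs578T, where 5.16% of all genes were lower. They were STIP1, CHORDC1 and BAG3, already counted as co-chaperones, and HMOX1, the haem oxygenase, which also answers to oxidative stress (-1.04, SE 0.17, adjusted P=0.0222). HMOX1 had 6.90 and 7.26 with the ODNs in Hs578T, against 7.93 and 8.20 with M and 7.93 and 8.03 with U. HSF1 itself differed by -0.14 (adjusted P=0.466), and its negative regulator HSBP1 by 0.05. The muscle-type small heat shock protein HSPB7 was higher, by 1.58 (SE 0.17, adjusted P=0.00932), with 6.66 and 6.88 with the ODNs against 6.08 and 5.30 with M and 5.76 and 5.09 with U. The other small heat shock proteins tested did not pass, HSPB8 at -0.67 (adjusted P=0.0690) and CRYAB at 0.26 (adjusted P=0.463).

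Of 12 chaperones of the endoplasmic reticulum tested, 0 were lower and 1 was higher with the ODNs in Hs578T, near the shares of 5.16% and 3.87% over all genes, the calcium-binding lectin chaperone CALR (0.56, SE 0.10, adjusted P=0.0305), and the median difference was 0.19, with 8 of 12 above 0. CALR had 10.67 and 10.56 with the ODNs, against 10.43 and 10.04 with M and 10.43 and 10.08 with U.

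**Figure D3:**
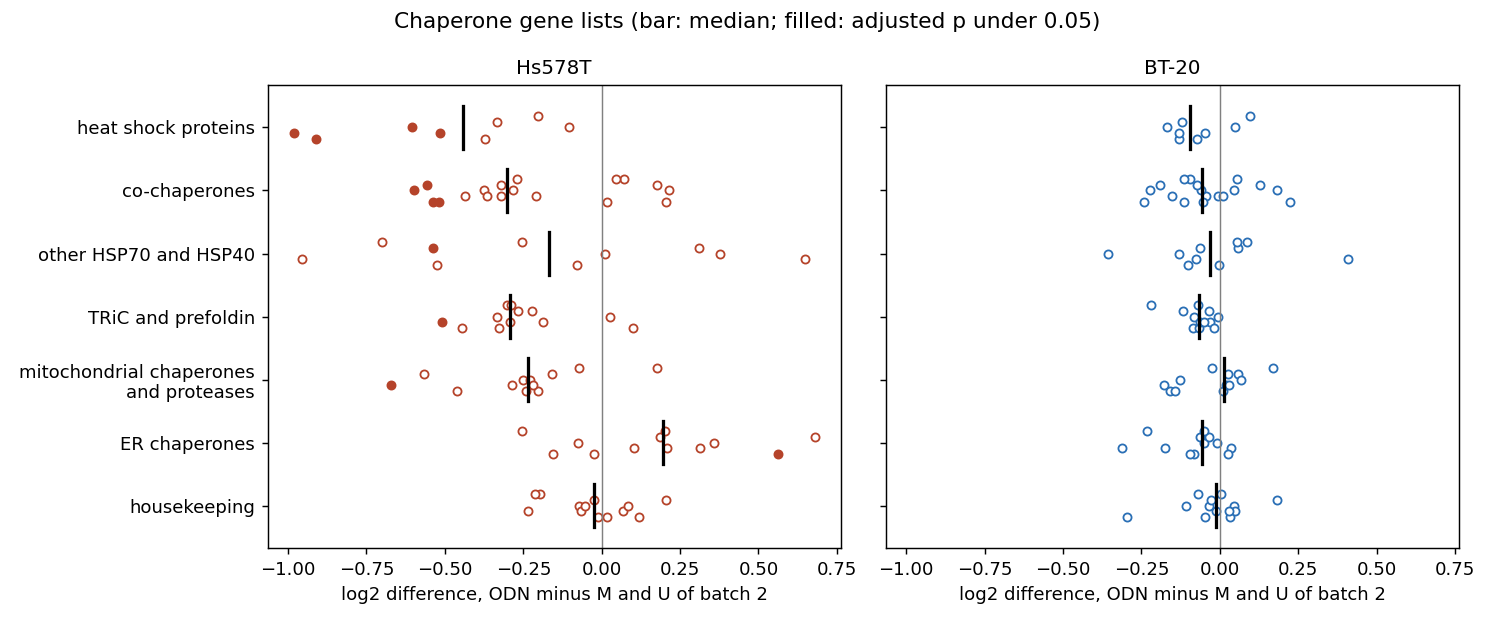
Log2 difference, ODN arrays minus M and U arrays of array batch 2 (x axis) for each tested gene (points) of 7 lists, in Hs578T (left) and BT-20 (right); bars are list medians and filled points have an adjusted P under 0.05. In Hs578T the medians run from -0.44 for the heat shock proteins to 0.19 for the chaperones of the endoplasmic reticulum (ER), and in BT-20 no point is filled.

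Between lines, where 40.2% of all genes were lower and 34.4% higher in Hs578T, the same lists were mixed. TRiC and prefoldin had 7 of 12 genes lower and 0 higher in Hs578T, led by CCT6A (-1.33, adjusted P=1.46e-05), with a median of -0.39. Of 18 co-chaperones 8 were lower and 5 higher, which is near those shares. They included BAG5 (-1.51) and PPID (-1.42), FKBP4, a steroid receptor partner of HSP90 (-1.23), and BAG2, an inhibitor of the HSP70 ubiquitin ligase STUB1 (4.48, adjusted P=2.99e-05). BAG2 had 11.03 and 11.11 with M and 11.25 and 11.24 with U in Hs578T, against 7.35 and 5.65 with M and 7.00 and 6.73 with U in BT-20. Among small heat shock proteins HSPB7 (1.89) and CRYAB (2.00) were higher and HSPB8 (-0.94) was lower in Hs578T. HSPB7 was under the floor of 5 in the BT-20 M and U arrays, at 3.63 to 3.71. CRYAB differed far less in set 1, at 7.01 and 6.89 in Hs578T against 6.57 and 6.39 in BT-20. In set 2 it had 8.54 and 8.18 against 4.85 and 4.81, the latter under the floor. Endoplasmic reticulum chaperones had 7 of 12 genes higher and 1 lower.

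Genes with a like pattern were looked for among 8018 genes at 5 or above in all 12 arrays, by Pearson correlation with the median of the 8 genes after each line was centred. The 5 nearest other genes were LPCAT1 (0.98), NCL (0.97), MED28 (0.97), C6orf136 (0.97) and TRIP10 (0.97), over 12 arrays that share oligonucleotide, batch and line. The 8 genes themselves reached 0.43 for HSPB1 to 0.98 for DNAJA1, values that are partly built in because the median was made from them. Among the 8, HSPB1 correlated with the others at 0.68 to 0.99 within Hs578T but at -0.84 to -0.24 within BT-20. These rest on the few arrays of each line, in which HSPB1 spanned only 13.85 to 14.09 in Hs578T and 13.62 to 13.85 in BT-20. The ODN difference of HSPB1 did not pass when compared between lines by limma (-0.30, SE 0.15, adjusted P=0.374). LPCAT1, a lung-type lysophospholipid acyltransferase, had 8.11 and 8.28 with the ODNs in Hs578T, against 9.14 and 9.36 with M and 9.27 and 9.06 with U. NCL, the nucleolar protein nucleolin, had 12.91 and 13.03 with the ODNs there, against 13.33 and 13.42 with M and 13.36 and 13.35 with U.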

How the data were processed

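Total RNA was hybridised to 1-colour Affymetrix HG-U133 Plus 2.0 arrays. The authors deposited log2 values for 54675 probe sets, which their processing notes credit to GCRMA in R 2.4, and whether the 12 arrays were normalized together is not given in the sources used here. The deposited log2 values were used unchanged. Groups and the design follow the labels.

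Probe sets annotated to 1 gene (41097; 1801 have several genes and 11777 none) were kept, with symbols updated for 41043 through RefSeq GRCh38.p14, and the one with the highest mean stood for each gene. Genes at 5 or above in at least 2 arrays of a fit were tested with limma 3.58.1 under R 4.3.3, by group means and eBayes, with Benjamini-Hochberg adjustment over all genes tested and a threshold of 0.05. For ODN2006 against its control, the lone arrays were assumed to vary like the M and U groups. Calls were tested on simulated data with independent noise in each array, so arrays of a set were not made alike. A planted log2 difference of 1 was called in 49% of genes for the ODNs in Hs578T and 71% in BT-20. On the real arrays that comparison gave each heat shock protein gene the same SE in both lines. The shares therefore do not show that a difference was easier to call in BT-20 than in Hs578T. For the ODN difference between lines the planted difference was called in 10%. For M against U it was called in 54% in Hs578T and 58% in BT-20, and for ODN2006 against its control in 48%. The heat shock protein genes, the other lists and the tests were chosen with earlier results of these data known. Of each other list, up to 4 genes with the smallest P in a comparison were named, and the 5 genes nearest in pattern.

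Deviations of the M and U arrays of a set correlated at 0.599 in Hs578T and 0.595 in BT-20 across 10410 genes, but at 0.0984 to 0.131 between lines. Array set within line was therefore also tried as a block for M against U. Between the lines the block was array set as a term shared by both lines. That term does not take up what arrays of a set share within a line. For the ODN comparisons the block was array batch within line, and that fit took the M and U arrays of both sets. Alternatives were quantile normalization, centring on housekeeping genes, no filter, the mean of all probe sets, trend and robust eBayes, other choices of arrays, and leaving out each array.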

Additional observations from a re-analysis of the deposited data

Results flagged for a closer look

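Among the other chaperone genes, 2 differed between the lines in how set 2 compared with set 1, by a test of the difference itself that was added after seeing the data and called 125 of 10410 genes. The M and U arrays of a set stood as its replicates in it, so its P does not measure how far sets vary. The small heat shock protein CRYAB, set 2 minus set 1, differed between Hs578T and BT-20 by 3.05 on the log2 scale (SE 0.17, adjusted P=0.00704). In Hs578T it had 8.54 with M and 8.18 with U in set 2, against 7.01 and 6.89 in set 1, and in BT-20 it had 4.85 and 4.81 in set 2, against 6.57 and 6.39 in set 1. FKBP5, an HSP90 co-chaperone induced by glucocorticoids, differed by -1.28 (SE 0.15, adjusted P=0.0360). In Hs578T FKBP5 had 6.83 with M and 7.09 with U in set 2, against 7.21 and 7.49 in set 1, and in BT-20 it had 9.08 and 9.17 in set 2, against 8.13 and 8.33 in set 1. Within Hs578T alone FKBP5 did not pass (-0.39, adjusted P=0.143). None of the 8 heat shock protein genes passed this test.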

How the results depend on the processing

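Counts of called genes among the 8 are given. Between the lines 5 were called, 5 without each array in turn, 3 in set 2 alone and 6, with HSP90AB1 added, without the filter, with the mean of all probe sets and with trend and robust eBayes. With the ODNs in Hs578T 4 were called, 6 with trend and robust eBayes, 5 with the replicate block or against M and U of both sets, 2 under housekeeping centring and 0 to 4 without each array. Over both lines 1 was called, against 2 under quantile normalization, 3 without the filter, 2 with the mean of all probe sets, 6 with trend and robust eBayes, 3 with the replicate block, 4 against M and U of both sets and 0 to 3 without each array. For the difference between lines 0 were called, against 1 with trend and robust eBayes (DNAJA1) and 1 against M and U of both sets (DNAJB1). Between sets 0 were called, against 1 (HSPH1) in each line with trend and robust eBayes. M against U, ODN2006 against its control and the ODNs in BT-20 stayed at 0 under every alternative run. The replicate block left the other counts of the 8 as they were, at 5 between the lines and 0 for M against U. Between the lines this block was array set as a term shared by both lines, so it did not test set within line. For the ODN comparisons the replicate block was fitted with the M and U arrays of both sets, so the arrays changed along with the model. No called difference changed sign under any alternative.

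Over all genes, 937 were called with the ODNs in Hs578T, against 50 to 1510 without each array and 629 to 1570 otherwise, and 168 over both lines, against 5 to 729 and 103 to 907. For the ODN difference between lines 28 were called, against 1 to 123 and 31 to 119. Between sets 249 genes were called in Hs578T, against 1 to 152 and 15 to 435, and 247 in BT-20, against 0 to 228 and 8 to 626. ODN2006 against its control called 1, against 0 to 150.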
